A study of Glycine max with 18 samples.

Results

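The proanthocyanidin and anthocyanin genes of the late flavonoid pathway were followed through the compartments of the developing soybean seed: DFR1, DFR2, ANS2, ANR1, LAR1 and UGT78K1. They were taken from the probe-gene table of the array by symbol or synonym, and each of the 6 names matched exactly 1 soybean probe set. The 6 are part of 6031 genes that this table gives to at least 1 soybean probe set with a single symbol. The probe sets were Gma.5313.1.S1_at for DFR1, GmaAffx.80720.1.S1_at for DFR2, Gma.1163.1.S1_at for ANS2, GmaAffx.43987.1.S1_at for ANR1, GmaAffx.34868.1.A1_at for LAR1 and Gma.1002.1.A1_at for UGT78K1. The table lists W3 as a synonym of DFR1 and W4 as a synonym of DFR2, loci known in soybean for flower colour. The probe sets of LAR1 and UGT78K1 carry the mark A1 in their names and the others carry S1, and the tables used here do not explain that mark. On some Affymetrix arrays such a mark concerns the orientation of the source sequences. The values of LAR1 and UGT78K1 may therefore measure the opposite strand, which was not tested. Probe sets read below for CHI4A, IF7GT, GASA6, WRKY29 and MYB172 also carry A1.

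Proanthocyanidins and anthocyanins are made from dihydroflavonols by a shared chain of enzymes. Dihydroflavonol reductase (DFR) makes leucoanthocyanidins, and anthocyanidin synthase (ANS) turns these into the coloured anthocyanidins. Leucoanthocyanidin reductase (LAR) makes catechin units from leucoanthocyanidins, and anthocyanidin reductase (ANR) makes epicatechin units from anthocyanidins. Both are units of proanthocyanidins, the tannins of seed coats. A glucosyltransferase instead attaches glucose to an anthocyanidin to give a stable anthocyanin pigment. In Arabidopsis seeds, ANR is known for its activity in the endothelium, the innermost layer of the seed coat.

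The samples were seeds of the cultivar Asgrow A3237 at the cotyledon stage, 2.5 to 3.0 mm long, from untreated plants grown in 16 h days and 8 h nights at 22 °C. After fixation with ethanol and acetic acid, seeds in paraffin were sectioned at 8 µm, and 8 compartments were taken by laser capture: the embryo proper, its suspensor, the endosperm, and, of the seed coat, the hilum, the epidermis, both integuments (inner and outer) and the endothelium. Whole seeds formed a ninth group, with RNA prepared by another reagent than that of the captured compartments. Each of the 9 groups had 2 arrays of the Affymetrix Soybean Genome Array, hybridised with RNA amplified from 2 ng, and the labels do not say how many plants or seeds stand behind an array, so that p-values measure the spread between these arrays, which may be technical.

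The deposited signals had a trimmed mean of 500 on all 18 arrays, and the paired log2 signals within a group correlated between 0.935 in suspensor and 0.975 in whole seed. As a level of unspecific signal, the 95th percentile over the probe sets of other organisms on each array lay between 105.7 and 215.6. A captured tissue is a mixture of cells, so fewer cells that express a gene and less RNA per cell cannot be told apart. AGL1L, a MADS-box gene used as a seed coat marker, read 9790.2 to 21573.5 on the 10 seed coat arrays, 4.0 and 4.8 in embryo proper, 117.4 and 261.6 in endosperm and 200.6 and 257.4 in suspensor. KTI3, the Kunitz trypsin inhibitor of the embryo, read 2263.4 and 2644.4 in embryo proper, 473.7 and 547.4 in suspensor and at most 35.0 in any seed coat compartment. SCB1, the seed coat protein gene, stood apart on suspensor array 1, with 15429.5 against 420.7 on array 2. The seed coat peroxidase Ep read 3493.1 and 4450.1 in whole seed and at most 520.4 in the captured compartments, and GY1, the storage protein gene, was dim in every group. CAB3, a chlorophyll-binding protein gene taken as an embryo marker, was highest in embryo proper on its brightest probe set, at 35785.8 and 38522.1, but also read 14385.4 to 20247.0 in hilum, epidermis and outer integument. PRX2, a further peroxidase gene, read 17675.8 to 58529.8 in the seed coat and 14603.0 and 15303.9 in suspensor. The part of these markers in the results was not tested.

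All 6 genes differed among the 9 groups in limma's moderated F-test, with adjusted p between 3.6e-12 for ANS2 and 2.0e-06 for LAR1; 59.4% of the 31961 soybean probe sets tested did so. For 4 genes the hilum gave the highest mean, for DFR1 the epidermis and for UGT78K1 the suspensor. Below, a gene is called higher or lower in a compartment when limma's comparison with the mean of the other 7 captured compartments gave a Benjamini-Hochberg adjusted p under 0.05 over all probe sets tested. Differences are on the log2 scale, with signals under 50 set to 50. These comparisons share arrays, since each compartment also belongs to the reference of the others.

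**Figure D1:**
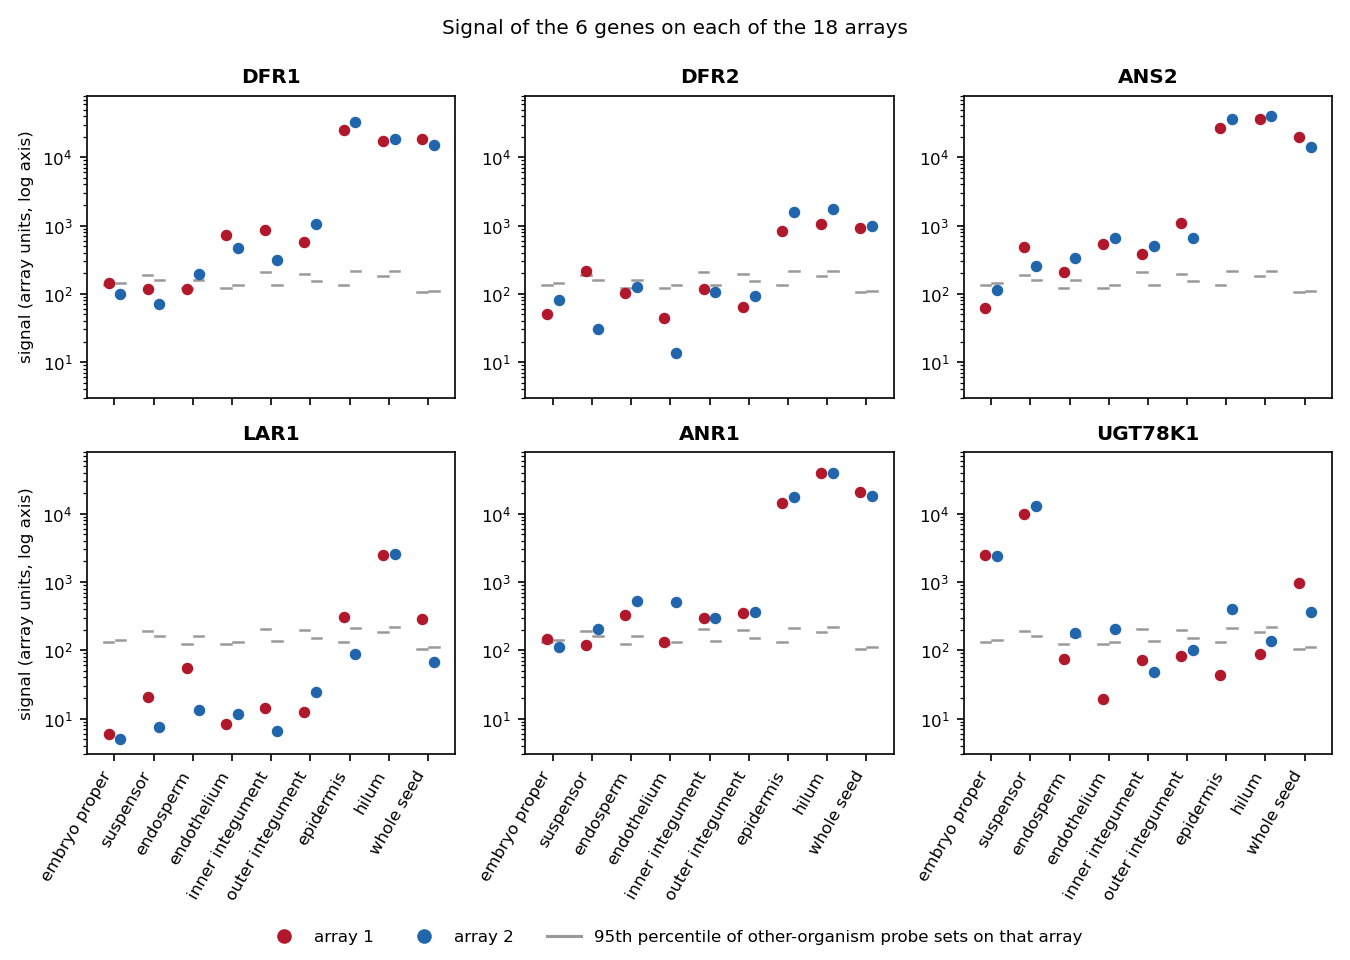
Signal of the 6 genes on each array, on a log axis, by group; red and blue points are arrays 1 and 2, and grey bars mark the 95th percentile of the other-organism probe sets on the same array. DFR1, DFR2, ANS2 and ANR1 are high in epidermis, hilum and whole seed, LAR1 is high in hilum, and UGT78K1 is high in suspensor and embryo proper.

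DFR1 was bright in the 2 outer parts of the seed coat. Its signal was 25012.2 and 33252.2 on the epidermis arrays, or 29132 ± 5827 (SD, n = 2), and 17506.3 and 18372.9 on the hilum arrays, or 17940 ± 613 (SD, n = 2). It read 718.3 and 465.6 in endothelium, 846.2 and 315.6 in inner integument and 569.9 and 1049.3 in outer integument. Both epidermis arrays lay above every other captured array, which held for 1.94% of the probe sets tested, and the 3 inner seed coat layers overlapped each other. The remaining captured arrays were dim: 143.9 and 98.9 in embryo proper, 119.5 and 71.8 in suspensor, and 116.2 and 195.7 in endosperm. None of these groups had both arrays above the unspecific level, so the gene was at or near background there. DFR1 was higher in epidermis by 5.88 ± 0.33 (log2, SE; 58.7-fold; adjusted p = 2.3e-09) and in hilum by 5.09 ± 0.33 (34.1-fold; adjusted p = 5.6e-09). It was lower in embryo proper (log2 difference -3.17), suspensor (-3.59) and endosperm (-2.79), with adjusted p of 3.4e-06 or less. Epidermis exceeded its neighbour, the outer integument, 37.3-fold (adjusted p = 1.3e-07; 14% of probe sets called), and hilum exceeded outer integument 23.2-fold (adjusted p = 5.4e-07; 16.7% called). Against the suspensor, where both arrays were at or below the unspecific level, only a bound can be given: epidermis was at least 166-fold and hilum at least 103-fold higher. In such bounds the dim group is represented, on each array, by the larger of its own signal and the unspecific level. In the order of DFR1 levels, epidermis, hilum and whole seed were not separated by the test, nor were outer integument, endothelium and inner integument, while the steps from whole seed to outer integument (adjusted p = 2.5e-06; 19.6% of probe sets called) and from inner integument to endosperm (adjusted p = 0.00398; 31.1% called) passed it.

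DFR2, the second reductase, had the same bright groups. It read 837.2 and 1556.2 in epidermis, 1197 ± 508 (SD, n = 2), and 1059.6 and 1726.2 in hilum, 1393 ± 471 (SD, n = 2). These 4 arrays exceeded every other captured array, though the share of all probe sets with that layout was not counted. The epidermis and hilum arrays overlapped. Elsewhere in the seed coat it read 44.2 and 13.6 in endothelium, 117.4 and 104.5 in inner integument and 63.3 and 91.5 in outer integument. In the rest of the seed it read 50.3 and 81.7 in embryo proper, 103.1 and 124.9 in endosperm, and 213.7 and 30.2 in suspensor. Outside epidermis, hilum and whole seed, suspensor array 1 was the one array above the unspecific level, and on that array SCB1 was also high while AGL1L was not (200.6, against 257.4 on array 2); their part in this value was not tested. DFR2 was higher in hilum by 3.49 ± 0.44 (log2, SE; 11.3-fold; adjusted p = 1.4e-05) and in epidermis by 3.21 ± 0.44 (9.27-fold; adjusted p = 4.5e-05). Hilum was at least 7.80-fold above outer integument and at least 10.6-fold above endothelium, and epidermis at least 6.59-fold and 8.90-fold above the same layers. DFR2 was also lower in embryo proper (log2 difference -1.53, adjusted p = 0.0159) and in endothelium (-1.94, adjusted p = 0.00419). The mean behind these calls includes the bright epidermis and hilum. No array of embryo proper or endothelium passed the unspecific level, so the sizes depend on the floor. DFR2 was not called between embryo proper and endothelium, nor between endothelium and either integument. The embryo proper call was lost in 4 of 30 settings, among them without array 1 (adjusted p = 0.271) and without array 2 (0.0576) of that group. In the order of its levels, the single step that passed the test was that from whole seed to endosperm (at least 6.86-fold, adjusted p = 5.7e-04; 27.5% of probe sets called).

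ANS2, the anthocyanidin synthase gene, read 36823.4 and 39797.8 in hilum, 38311 ± 2103 (SD, n = 2), and 27263.4 and 36875.8 in epidermis, 32070 ± 6797 (SD, n = 2). Epidermis array 2 fell just above hilum array 1, so that these groups overlapped. The inner layers of the seed coat held far less, with 528.9 and 647.2 in endothelium, 379.2 and 502.8 in inner integument and 1085.7 and 655.1 in outer integument. Endosperm read 208.4 and 339.1, suspensor 482.6 and 253.2, and embryo proper 61.1 and 115.1. Embryo proper was the one compartment in which neither array passed the unspecific level. ANS2 was higher in hilum by 5.86 ± 0.29 (log2, SE; 58.2-fold; adjusted p = 2.8e-10) and in epidermis by 5.55 ± 0.29 (46.9-fold; adjusted p = 1.0e-09). Hilum stood 45.4-fold above outer integument (adjusted p = 9.3e-09) and at least 278-fold above embryo proper. ANS2 was lower in embryo proper (log2 difference -4.23, adjusted p = 4.5e-09), suspensor (-1.88, adjusted p = 5.6e-05), endosperm (-2.33, adjusted p = 4.9e-06), inner integument (-1.51, adjusted p = 4.8e-04) and endothelium (-1.03, adjusted p = 0.0167). The means behind these calls include the bright hilum and epidermis. In the order of its levels, the steps from whole seed to outer integument (19.9-fold, adjusted p = 7.2e-07) and from endosperm to embryo proper (at least 1.93-fold, adjusted p = 0.00311; 22.6% of probe sets called) passed the test. Within the embryo, suspensor exceeded embryo proper at least 2.54-fold for ANS2 (adjusted p = 4.4e-04), the one gene of the 6 called between these compartments, where 24.6% of probe sets were called. Suspensor array 1 carried the larger ANS2 value; of the seed coat markers SCB1 was higher on that array, AGL1L was lower (200.6 against 257.4) and PRX2 was close on both, and their part in the difference was not tested.

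ANR1, which commits anthocyanidins to epicatechin, read 39338.0 and 39277.7 in hilum, 39308 ± 43 (SD, n = 2). Epidermis read 14224.1 and 17797.0, or 16011 ± 2526 (SD, n = 2), below both hilum arrays, and the hilum arrays exceeded all others of the captured compartments, as for 4.52% of the probe sets tested. The other seed coat layers read 133.9 and 502.6 in endothelium, 301.7 and 297.2 in inner integument and 356.0 and 362.9 in outer integument. The endothelium, the layer in which ANR is known from Arabidopsis, was thus among the dim layers here, and its 2 arrays disagreed. In the rest of the seed ANR1 read 328.7 and 522.3 in endosperm, 118.0 and 204.3 in suspensor and 144.0 and 110.1 in embryo proper. It was higher in hilum by 6.46 ± 0.34 (log2, SE; 87.8-fold; adjusted p = 5.6e-10), the largest difference of any of the 6 genes in any compartment, and in epidermis by 4.97 ± 0.34 (31.2-fold; adjusted p = 1.2e-08). Hilum exceeded endothelium 152-fold (adjusted p = 2.3e-09; 20.6% of probe sets called), and epidermis exceeded it 61.3-fold (adjusted p = 2.6e-08; 15.6% called). The single step in the order of its levels that passed the test was that from epidermis to endosperm (38.4-fold, adjusted p = 6.9e-08; 24.8% called). ANR1 was lower in all of the other 6 captured compartments, from -1.05 in endosperm (adjusted p = 0.0231) to -3.01 in embryo proper (adjusted p = 1.9e-06). The means behind these calls include the bright hilum and epidermis, and endosperm had the highest ANR1 mean of these 6. The endosperm call was lost in 6 of 30 settings, among them without endosperm array 1 (adjusted p = 0.338), and the outer integument call in 3, among them without either of its arrays (adjusted p = 0.104 and 0.0774). The endothelium value rested on array 1: the log2 difference was -1.82 (adjusted p = 6.8e-04) with both arrays and -0.87 (adjusted p = 0.107) without array 1.

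LAR1, which makes catechin from leucoanthocyanidin, passed the unspecific level on 4 of the 18 arrays, the fewest of the 6 genes. It read 2481.6 and 2571.8 in hilum, 2527 ± 64 (SD, n = 2), and 310.2 and 87.5 in epidermis. All other captured arrays lay between 5.0 and 54.3, under the unspecific level, and 11 of the 18 arrays were under the floor of 50. Epidermis array 1 and whole seed array 1 were the only arrays besides those of the hilum on which LAR1 passed the unspecific level. It was higher in hilum by 5.40 ± 0.45 (log2, SE; 42.4-fold; adjusted p = 1.1e-07). Since 6 of the 7 other compartments were dim, this size depends on the floor, and it ran from 4.54 with a floor of 100 to 7.06 with none, with the call kept in 30 of 30 settings. The hilum signal was at least 14.5-fold that of suspensor, at least 14.6-fold that of outer integument and at least 19.7-fold that of endothelium. In epidermis the log2 difference was 0.90 ± 0.45 (adjusted p = 0.221), and it was -0.01 without epidermis array 1 and 1.82 without array 2, so that the epidermal level is set by 1 array. Hilum to epidermis was the single step in the order of LAR1 levels that passed the test.

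**Figure D2:**
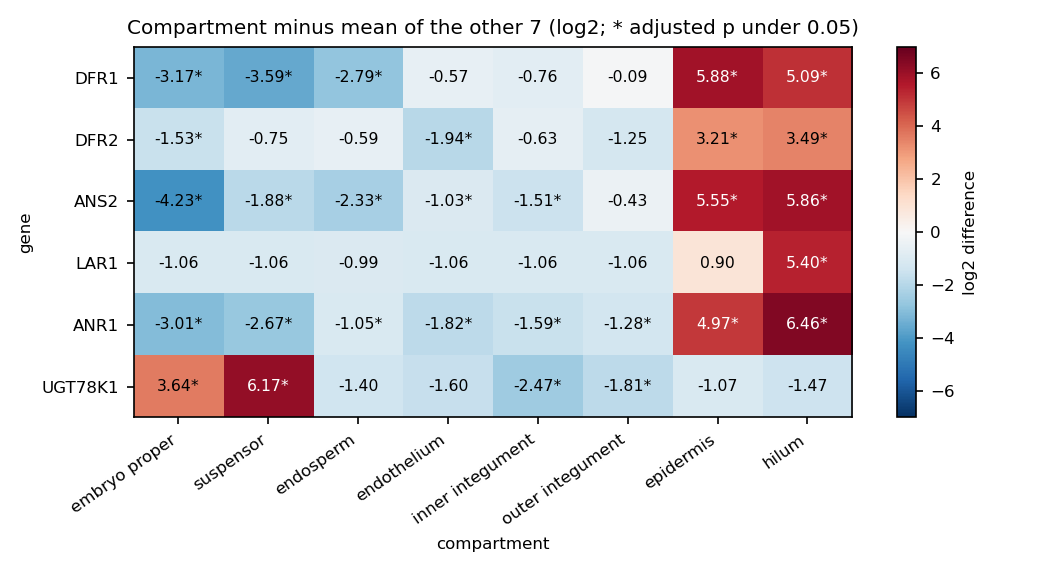
Log2 difference of each of 8 captured compartments (columns) from the mean of the other 7, for each of the 6 genes (rows); red is higher, blue is lower, and an asterisk marks an adjusted p under 0.05. The epidermis and hilum columns hold values from 3.21 to 6.46 for DFR1, DFR2, ANS2 and ANR1, and UGT78K1 has its values of 3.64 and 6.17 in embryo proper and suspensor.

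The comparison of hilum with epidermis asked whether the 2 bright parts of the seed coat carry the same late genes. LAR1 alone passed the test: hilum exceeded epidermis 15.3-fold (log2 difference 3.94 ± 0.60, SE; adjusted p = 2.8e-04), where 8.31% of all probe sets were called. The epidermal arrays of LAR1 differed, and this difference was 4.85 without epidermis array 1 and 3.03 without array 2, called in both cases. ANR1 was 2.47-fold higher in hilum (log2 difference 1.305 ± 0.44), at an adjusted p of 0.0839. That ANR1 value passed the threshold when either endothelium array was left out, at 0.0128 without array 1 and 0.0138 without array 2. ANS2 stood at 1.21-fold (0.27 ± 0.38, adjusted p = 0.773) and DFR2 at 1.18-fold (0.24 ± 0.59, adjusted p = 0.891). DFR1 leaned the other way, 1.61-fold higher in epidermis (0.69 ± 0.44, adjusted p = 0.427). These standard errors pool the spread within all 9 groups and do not measure that of hilum and epidermis alone. For ANR1, the SD of the log2 signals was 0.0016 in hilum and 0.23 in epidermis, beside 1.35 in endothelium. For LAR1, groups held at the floor on both arrays had an SD of 0. For the genes that missed the threshold, the pooled errors leave room for differences that 2 arrays a group could not detect.

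**Figure D3:**
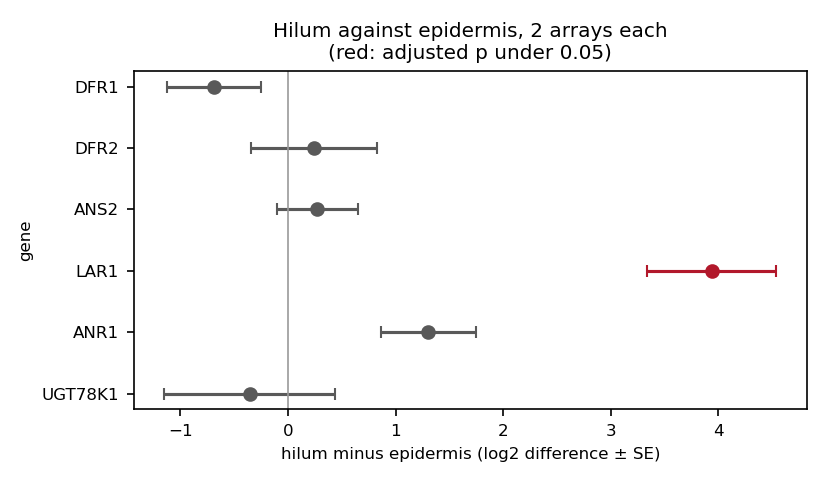
Log2 difference of hilum from epidermis with its standard error for each of the 6 genes, from 2 arrays per compartment; points right of 0 are higher in hilum and red marks an adjusted p under 0.05. LAR1 lies at 3.94, ANR1 at 1.305, and DFR1 at -0.69.

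UGT78K1, which attaches glucose to anthocyanidins and was characterised from the coats of black soybean seeds, showed the reverse layout. It read 10057.8 and 12806.5 in suspensor, 11432 ± 1944 (SD, n = 2), and 2459.8 and 2432.5 in embryo proper, 2446 ± 19 (SD, n = 2). In epidermis it read 42.8 and 396.3, and in hilum 88.0 and 137.4. Both suspensor arrays lay above every other captured array, as for 5.81% of the probe sets tested. Both embryo proper arrays lay above all arrays of the seed coat and endosperm, a layout whose share was not counted. The inner seed coat layers read 19.4 and 208.2 in endothelium, 72.0 and 47.9 in inner integument and 81.3 and 99.3 in outer integument, and endosperm read 74.5 and 177.2. Hilum, inner integument and outer integument had no array above the unspecific level; endosperm, endothelium and epidermis had 1 of 2. The gene was higher in suspensor by 6.17 ± 0.60 (log2, SE; 72.1-fold; adjusted p = 2.7e-07) and in embryo proper by 3.64 ± 0.60 (12.5-fold; adjusted p = 1.6e-04). Most arrays of the seed coat and endosperm were under the unspecific level, so these sizes depend on the floor. Suspensor was at least 56.9-fold above hilum and at least 65.5-fold above outer integument, and embryo proper at least 12.3-fold and 14.1-fold above the same compartments. Suspensor exceeded embryo proper 4.64-fold, at an adjusted p of 0.050001, just above the threshold. The difference passed in 9 of 30 alternative settings. Its error is pooled over all 9 groups. The SD of the log2 signals was 0.25 in suspensor and 0.011 in embryo proper, beside 2.11 in epidermis and 1.46 in endothelium. The seed coat marker AGL1L was near 0 in embryo proper, and on suspensor array 2, where UGT78K1 was the higher, AGL1L was the higher and SCB1 the lower of the 2 arrays; the part of these markers was not tested. No step between neighbours in the order of UGT78K1 levels passed the test.

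Counted over the 6 genes, hilum had 5 higher and 0 lower, against 12% of all probe sets higher and 9.19% lower, and epidermis had 4 higher and 0 lower, against 7.9% and 6.35%. Embryo proper had 1 higher and 4 lower (12.3% and 11.2% of probe sets), and suspensor 1 higher and 3 lower (12.7% and 14.3%). Their UGT78K1 was the one gene called higher outside epidermis and hilum. No gene was higher in the other 4 compartments, and 3 were lower in endosperm (15.4% of probe sets lower), 3 in endothelium (8.8%), 3 in inner integument (13.9%) and 2 in outer integument (10.4%). Each lower call was made against a mean that includes the bright epidermis and hilum, or for UGT78K1 the bright suspensor and embryo proper. Such a call does not by itself set a compartment apart from the other dim ones. Over the 6 genes, the median log2 difference was 5.25 in hilum and 4.09 in epidermis, beside 0.08 and 0.03 for all probe sets tested, and it lay between -2.27 and -1.16 in the other 6 compartments. When the arrays were centred on their medians instead, the share of higher calls among all calls in hilum went from 56.5% to 37.6%, and the calls of the members in hilum remained at 5 higher. In the endothelium all 3 lower calls (DFR2, ANS2 and ANR1) were lost without endothelium array 1, at adjusted p of 0.0612, 0.212 and 0.107, and those of DFR2 and ANS2 also without array 2, at 0.0582 and 0.0761. The lower call of UGT78K1 in outer integument (log2 difference -1.81, adjusted p = 0.0378) was lost in 14 of 30 settings, with adjusted p of 0.265 without outer integument array 1 and 0.141 without array 2. Of the 3 lower calls in inner integument, that of UGT78K1 was lost without inner integument array 2 (adjusted p = 0.0835).

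When embryo proper and suspensor together were compared with the 5 seed coat compartments, 1 of the 6 was higher in the embryo and 5 were lower, where 14.6% and 15.9% of all probe sets were called. UGT78K1 was 54.4-fold higher in the embryo (log2 difference 5.77 ± 0.47, SE; adjusted p = 2.3e-08). Most of its seed coat arrays were under the unspecific level, so this size depends on the floor, and it ran from 5.37 to 6.09 over 30 settings. DFR1 was lower in the embryo by 4.63 ± 0.26, ANS2 by 4.15 ± 0.22 and ANR1 by 3.66 ± 0.26 on the log2 scale, with adjusted p of 4.0e-09 or less. For DFR2 the difference was -1.50 ± 0.35 (adjusted p = 0.00256) and for LAR1 -1.48 ± 0.35 (adjusted p = 0.00348). By these means DFR1, DFR2, ANS2, ANR1 and LAR1 were on the seed coat side, and the glucosyltransferase gene on the embryo side. This did not hold for every layer. In endothelium and both integuments, DFR2 and LAR1 had no array above the unspecific level. Neither of these genes was called between embryo proper and any of those layers. ANR1 was not called between embryo proper and endothelium. Between suspensor and either endothelium or inner integument, neither ANR1 nor ANS2 was called.

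In whole seeds the means of DFR1, ANS2, ANR1 and DFR2 lay below those of their highest compartment, a difference called for ANS2 alone. DFR1 read 18696.4 and 14978.9, ANS2 19739.1 and 14213.5 and ANR1 21009.3 and 17867.2, which are 57.8%, 44.3% and 49.5% of their highest compartment means. DFR2 read 935.0 and 993.0, or 69.2% of its hilum mean. These 4 were higher in whole seed than in the mean of the 8 compartments (19.4% of all probe sets called, 11.8% higher), by 4.63 ± 0.33 for ANR1, 4.36 ± 0.33 for DFR1, 3.94 ± 0.28 for ANS2 and 2.57 ± 0.44 for DFR2 (log2, SE), with adjusted p of 4.1e-04 or less. LAR1 read 282.5 and 68.2 and UGT78K1 957.4 and 360.0, with whole seed array 1 the higher in both genes, and neither was called (adjusted p = 0.445 and 0.214). Their whole seed means were 6.94% of the hilum mean of LAR1 and 5.76% of the suspensor mean of UGT78K1. KTI3, the embryo marker, was also higher on whole seed array 1, with 982.1 against 369.2, and its part in the UGT78K1 values was not tested. The actin 3′ to 5′ signal ratio was 10.7 and 14.8 on the whole seed arrays and 2.17 to 9.01 on the captured ones. That of ubiquitin was 9.10 and 5.90 on the whole seed arrays and 0.053 to 23.6 on the captured ones. The part of these ratios in the comparisons was not tested. Between hilum and whole seed, where 24.7% of probe sets were called, 3 of the 6 genes were called. ANS2 was 2.29-fold (adjusted p = 0.0279) and LAR1 18.2-fold (adjusted p = 7.6e-05) higher in hilum, and UGT78K1 was at least 2.94-fold higher in whole seed (adjusted p = 0.0333).

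The enzymes that feed the 6 genes are chalcone synthase (CHS), chalcone isomerase (CHI), flavanone hydroxylase (F3H) and, on a side branch to flavonols, flavonol synthase (FLS). Of 30 upstream names searched, 9 genes had a probe set with 1 symbol, and each was represented by the probe set whose log2 signal averaged highest over the 18 arrays. In hilum 5 of the 9 were higher, against 12% of all probe sets. They were CHS8 by 5.56 ± 0.33, CHI4A by 3.97 ± 0.24, F3H by 3.68 ± 0.23, CHI2-A by 3.26 ± 0.27 and CHS1 by 1.50 ± 0.41 (log2, SE). CHI1A and CHI1B1 were lower there, against 9.19% of all probe sets. In epidermis 5 were higher as well, against 7.9% of all probe sets. They were CHS8 by 3.69 ± 0.33, F3H by 3.63 ± 0.23, CHI4A by 3.36 ± 0.24, CHI2-A by 3.36 ± 0.27 and FLS1 by 2.12 ± 0.48. CHI1B1 was lower there, against 6.35% of all probe sets. F3H, which supplies the substrate of both DFR and FLS, read 52353.6 and 65160.1 in hilum and 45357.0 and 71198.3 in epidermis, and these groups overlapped. A second F3H probe set gave larger differences in the same direction, 5.88 in hilum and 5.15 in epidermis. The second CHI4A probe set was also higher in both. The second FLS1 probe set was not called in epidermis (0.97, adjusted p = 0.169). For CHI1B1, Gma.2826.1.S1_at was lower in both compartments (-1.14 each), but GmaAffx.92003.1.S1_at and GmaAffx.92003.1.S1_x_at were called in neither. Of the other CHS8 and CHS1 probe sets, some were called in these compartments and some were not. The lower calls were less firm: in hilum 0 upstream genes were lower without hilum array 2, and in epidermis 0 without either epidermis array. The median over the 9 was 1.50 in hilum and 2.12 in epidermis, beside 0.08 and 0.03 over all probe sets.

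In suspensor 5 of the 9 upstream genes were higher (12.7% of all probe sets were), of which CHI2-A, CHI4A and CHS1 were also higher in hilum: CHI2-A by 5.53 ± 0.27, CHI1B1 by 4.56 ± 0.38, CHI1A by 4.36 ± 0.28, CHS1 by 2.92 ± 0.41 and CHI4A by 1.85 ± 0.24, while F3H (-1.86 ± 0.23) and FLS1 (-1.75 ± 0.48) were lower (14.3% of all probe sets were). Of 9 tested genes of the isoflavonoid branch, which leaves the pathway before F3H, 4 were higher in suspensor, against 12.7% of all probe sets: CHR5 by 5.94 ± 0.30, IFS2 by 5.42 ± 0.42, IFS1 by 4.29 ± 0.47 and HIDH by 2.91 ± 0.26. In suspensor 1 of the 9 was lower, against 14.3% of all probe sets. It was IF7GT (-1.97 ± 0.34), with dim signals of 72.1 and 28.8 there. IFS is the isoflavone synthase that opens this branch. In hilum 3 of the 9 were higher, among them the isoflavone glucosyltransferase IF7GT (5.27 ± 0.34) and HIDH (4.42 ± 0.26), and 2 were lower, against 12% and 9.19% of all probe sets. IF7GT read 4232.2 to 5593.1 in hilum and 5.1 to 9.8 in epidermis, at least 28.8-fold less, and 6961.2 to 8062.3 in embryo proper. In endothelium none of the isoflavonoid genes was higher and 5 were lower, against 8.8% of all probe sets lower, with HIDH at -2.75 ± 0.26 and IF7GT at -2.28 ± 0.34, and among upstream genes CHI1A was higher (1.49 ± 0.28) and 4 were lower, CHI2-A the most at -1.99 ± 0.27. Without either endothelium array, the lower genes there numbered 2 of each list; without either hilum array 0 isoflavonoid genes were lower in hilum, and without either suspensor array 1 upstream gene was lower in suspensor.

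**Figure D4:**
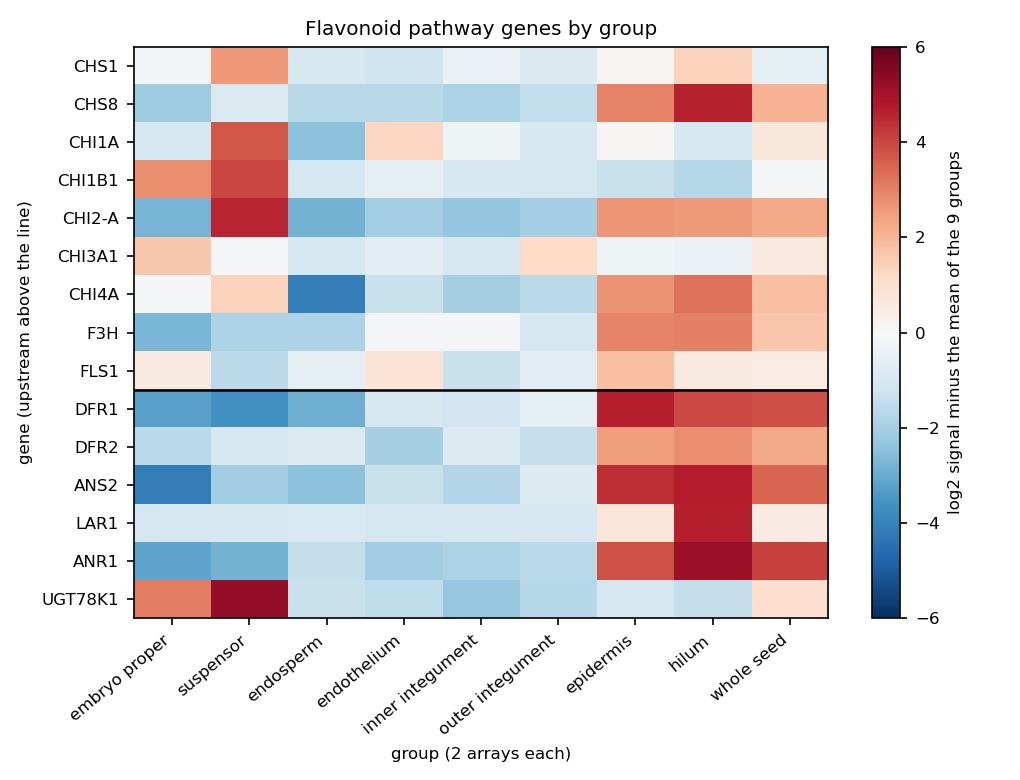
Mean log2 signal (signals under 50 set to 50) of the 9 upstream genes (above the line) and the 6 late genes (below it) in the 9 groups of 2 arrays, each as its difference from the mean over the 9 groups; red is above and blue below that mean. F3H and CHS8 are red in epidermis, hilum and whole seed together with DFR1, DFR2, ANS2 and ANR1, and CHI1A and CHI1B1 are red in suspensor with UGT78K1.

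CHS8 and several CHS1 probe sets also read higher in hilum than in epidermis. CHS8 was 5.56 above the other compartments in hilum and 3.69 in epidermis, and lower in epidermis than in hilum by 1.63 on the log2 scale (adjusted p = 0.0228). A second CHS1 probe set, GmaAffx.42116.1.S1_at, read 5810.7 and 5953.3 in hilum but 137.1 and 187.9 in epidermis and 114.9 and 111.7 in suspensor, and was higher in hilum by 5.40 ± 0.31 (adjusted p = 1.4e-09). Another, GmaAffx.42116.1.S1_x_at, had means of 5848.3 in hilum and 111.1 in epidermis. The CHS1 probe set used in the counts, GmaAffx.92491.1.S1_s_at, read 711.0 to 1189.3 in hilum and 1543.1 to 3076.5 in suspensor. In epidermis it read 389.9 and 381.1, and it was not called between hilum and epidermis. The chalcone synthase genes are close copies of each other, and which copy each probe set measures is uncertain.

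Among 929 named genes tested with 1461 probe sets, those whose log2 signals followed each gene most closely over the 18 arrays were listed, 3 per gene, as a description of arrays that share their tissue and preparation. DFR1 and ANS2 had GASA6, a gene of the gibberellin-responsive GASA family, at the top, with Pearson's r of 0.97 and 0.98; it read 28415.0 and 34775.9 in epidermis, 37763.4 and 40363.8 in hilum and at most 1165.0 in the other captured compartments. ANR1 followed F3H most closely (r = 0.98), then ANS2 and WRKY29, a WRKY transcription factor gene, at 0.96 each. DFR2 was closest to the same WRKY29 (r = 0.94), which read 1926.4 and 2330.4 in epidermis and 2040.5 and 1747.0 in hilum. LAR1 was closest to the CHS1 probe set GmaAffx.42116.1.S1_at (r = 0.90), then to NMH7, a MADS-box gene, and MYB172, a MYB gene, at 0.88 each. NMH7 read 12608.5 and 13907.6 in hilum and at most 174.0 in the other compartments. UGT78K1 was closest to CP3 and SGR (r = 0.93 each), with CP3 at 19670.1 and 23077.2 in suspensor and 3563.2 and 3909.9 in embryo proper, and FWL5 at 0.93. Between members, r was 0.70 to 0.96 for all pairs without UGT78K1, and -0.37 to -0.12 for UGT78K1 with the other 5.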

How the data were processed

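The deposited values were signal intensities per probe set in linear units, made by the authors with GCOS 1.3 per the submitters' processing notes and scaled to a trimmed mean of 500 on every array; other settings are not given in the sources used here, and no detection calls were used. Of 61170 probe sets, 37593 are from soybean, and 12 values were 0. Groups came from the labels. Signals under 50 were set to 50 and log2 taken, and the 31961 soybean probe sets that reached a signal of 100 on 2 or more of the 18 arrays were fitted with limma 3.58.1 in R 4.3.3 (lmFit, eBayes with a variance trend, group means over all 18 arrays), with Benjamini-Hochberg adjustment within each comparison and a threshold of 0.05. All 6 genes passed that filter. The fit was tested on simulated data. The number of arrays, 2 per group, limits the precision. The 6 genes, the pathway lists and the tests were chosen with earlier results of these data known. Named pathway genes were the 3 largest called changes in endothelium and in hilum. Other upstream and isoflavonoid genes, the extra probe sets of upstream genes and IF7GT in epidermis were named after their values were seen. No probe set with 1 symbol matched the late partner genes (10 names) or the regulators (4 names). The settings tried are under the closing section. For the most similar genes, the rule was the 3 with the highest r among genes with a symbol other than a LOC number. Genome positions and sequences were not used here, so a planned search for promoter motifs was not run.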

Additional observations from a re-analysis of the deposited data

How the results depend on the processing

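Over 12 other processings and 18 fits that each left out 1 array, the 50 called member differences kept direction and call in 1460 of 1496 values, lost the call in 36 and reversed in 0; of 1378 values of uncalled differences, 52 gained a call and 24 reversed. All calls of DFR1, DFR2, ANS2 and ANR1 in epidermis and hilum, of LAR1 in hilum and of UGT78K1 in suspensor and embryo proper held in each of 30 settings; other calls lost were ANR1 and ANS2 in inner integument without the 3 arrays of high background (adjusted p = 0.0646 and 0.0579) and DFR2 in embryo proper with a floor of 25 or none (0.0689 and 0.113); the cause of these changes and of those below was not tested. Lower members numbered 5 in endosperm with a floor of 100 and 1 in hilum with that floor or median centring. In outer integument they numbered 1 with a floor of 25, no floor or no filter and 0 without the 3 arrays of high background (epidermis 2, inner integument 1, outer integument 1; hilum array 2, as high, was kept). Embryo proper against suspensor gave 2 with a floor of 100, a filter at 300, median centring, without those 3 arrays and with the replicate block. Leaving out 1 array gave 0 to 4 lower in endothelium, 0 to 3 in outer integument, 0 to 1 in epidermis and in hilum, 1 to 2 in embryo proper against suspensor and 1 to 2 in epidermis against hilum. Upstream genes lower numbered 1 in suspensor with a floor of 100, and 0 in epidermis with no floor or without the 3 arrays; isoflavonoid genes lower in hilum numbered 1 with a floor of 25 or none. Leaving out 1 array gave upstream genes lower of 1 to 2 in suspensor, 2 to 4 in endothelium, 0 to 1 in epidermis and 0 to 2 in hilum, and isoflavonoid genes lower of 2 to 6 in endothelium and 0 to 3 in hilum.

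Reversed log2 differences, none of them called, were these. Against the other 7, DFR1 in outer integument was 0.0039 with background subtracted and 0.48 without the 3 arrays; leaving out 1 array it spanned -0.53 to 0.35, DFR2 in suspensor -1.79 to 0.30, UGT78K1 in epidermis -2.56 to 0.43, LAR1 in epidermis -0.0096 to 1.82 and LAR1 in whole seed -0.48 to 1.57. For embryo proper against suspensor the spans were -0.0025 to 0.73 for DFR1, -0.70 to 0.094 for ANR1 and -1.74 to 0.36 for DFR2. For endothelium against inner integument they were -0.26 to 1.79 for UGT78K1, -0.55 to 0.87 for DFR1 and -1.16 to 0.75 for ANR1, which was 0.029 with median centring. DFR1 in inner against outer integument spanned -1.29 to 0.13. UGT78K1 spanned -2.14 to 0.85 for outer integument against epidermis (0.99 without the 3 arrays), -0.61 to 0.030 for outer integument against hilum and -1.14 to 1.85 for epidermis against hilum (-1.14 without the 3 arrays), and DFR2 spanned -0.69 to 0.20 there.

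Same-numbered arrays did not deviate together (r from -0.073 to 0.083 over 36 pairs of groups). This check cannot tell whether they share a plant or a preparation, and the numbers were not used to pair samples in the fit as reported. The replicate block moved the one count given above. Median centring shifted the median of all probe sets by -0.21 in hilum, -0.10 in epidermis, -0.17 in whole seed, 0.23 in endosperm and 0.20 in endothelium, and took the share of higher calls from 61.0% to 43.9% in whole seed, 49.6% to 63.6% in endosperm, 49.9% to 65.7% in endothelium and 51.9% to 69.6% in endothelium against inner integument. Without the 3 arrays, all calls fell from 4554 to 2208 in epidermis, 8867 to 5875 in inner integument and 7039 to 4060 in outer integument; leaving out 1 whole seed array took 6191 to 2416 or 2652, 1 hilum array took 6757 to 3521 or 4114. A second probe set per gene could not be tried, since each gene has 1. Dim values, LAR1 outside hilum above all, give bounds only.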
